A study of Mus musculus with 3 samples.

Results

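Hedgehog signalling was followed through 8 genes in fetal ovarian somatic cells (FOSCs): the ligands Dhh and Ihh, the receptor Ptch1, the ligand-binding protein Hhip, the signal transducer Smo and the transcription factors Gli1, Gli2 and Gli3. The genes were chosen by name, as a pathway list, with earlier results of these data known. All 8 were listed in the count tables, which held 18738 genes in all. Their unique molecular identifiers (UMIs, each of which stands for 1 captured RNA molecule) were counted in 28971 of 29103 cell barcodes, those with 200 to 9000 detected genes and at most 10% mitochondrial UMIs. The UMIs of each cell class were then summed per lot and expressed relative to the UMI total of that sum (CPM).

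The cells came from 3 frozen lots, numbered 26, 29 and 30, each pooled from CD1 mouse embryos of 10 pregnant mice at E12.5. Ovaries were freed of the mesonephros and dissociated, and cells carrying SSEA1 (germ cells) or CD31 (endothelial cells) were depleted with magnetic beads before freezing. There was no treatment, mutant or untreated control, so the comparisons are between cell classes within the lots, and the 3 lots are the replicates. A lot is a pool, and differences between single embryos are averaged in it.

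After filtering, lots 26, 29 and 30 held 9711, 8553 and 10707 cells with a median of 11126, 8949 and 11595 UMIs per cell. Between 19 and 30 barcodes were shared by each pair of lots. Clustering, from which these genes and a wider list of 28 Hedgehog genes were left out, gave 10 classes named from marker genes, among them 11849 pre-granulosa-like, 6177 epithelial-like and 3782 stromal-like cells. A further 1462, 995 and 1734 cells of lots 26, 29 and 30 stayed unnamed and outside the main tests. The stromal-like class, of 1317, 1161 and 1304 cells, held 1165, 1093 and 1146 at a clustering resolution of 0.4. At 1.2 it held 2053, 1784 and 2144. The lots, labelled as ovarian, also held cells of other kinds: 389 Sertoli-like cells, the supporting cells of the testis (89, 284 and 16 in lots 26, 29 and 30), and 420 steroidogenic-like cells (129, 260 and 31), a class whose size depends on the clustering resolution. UMIs of the Y-linked genes Ddx3y, Eif2s3y, Kdm5d or Uty were found in 84.3%, 75.0% and 93.8% of the Sertoli-like cells and in 67.4%, 63.1% and 77.4% of the steroidogenic-like cells, but in 0.324%, 0.763% and 0.0438% of the pre-granulosa-like cells. Between these stood other classes, among them the stromal-like cells, at 4.86%, 20.2% and 1.92%. Endothelial-like cells stood at 8.62%, 34.1% and 2.30%, and epithelial-like cells at 3.08%, 8.88% and 0.441%. Because the 3 lots differ in how many XY cells they hold, comparisons between classes were also fitted without cells holding a Y-linked UMI, and calls that changed are given. The Sertoli-like class, of which 14, 71 and 1 cells held no Y-linked UMI, could not be fitted in this way. For the steroidogenic-like class, which was not tested, Ptch1, Hhip and Gli1 are given with and without such cells. Its Smo and Gli2 are given for the whole class only.

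Hedgehog ligands are secreted proteins that bind Patched receptors on nearby cells. In the absence of ligand Patched keeps Smoothened (Smo) inactive. Ligand binding frees Smo, which turns the Gli factors into activators, and Ptch1, Gli1 and Hhip are themselves classical target genes whose RNA rises where the pathway is active. In the fetal testis Dhh is made by Sertoli cells and acts on the interstitium, where it is needed for fetal Leydig cells. In the ovary Dhh and Ihh are known from granulosa cells of growing follicles, where they act on the stroma and on theca cells.

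The start regions of Dhh, Ptch1 and Hhip are shown because Dhh RNA was highest by far in 1 class while Ptch1 and Hhip RNA rose together in other cells. Each is the 250 bases before the RefSeq transcript start in mouse build GRCm38.p6, on the minus strand, read 5′ to 3′, with every GGGCGG or CCGCCC (the GC box on either strand) in capitals. Dhh lies at chr15:98898541-98898790, Ptch1 at chr13:63565736-63565985 and Hhip at chr8:80058009-80058258. The stretches of Dhh and Hhip lie just outside these genes as annotated in GENCODE vM21, and that of Ptch1 lies within the longer annotated Ptch1 gene. Overlap of the stretches with exons or with other genes was not checked.
Dhh: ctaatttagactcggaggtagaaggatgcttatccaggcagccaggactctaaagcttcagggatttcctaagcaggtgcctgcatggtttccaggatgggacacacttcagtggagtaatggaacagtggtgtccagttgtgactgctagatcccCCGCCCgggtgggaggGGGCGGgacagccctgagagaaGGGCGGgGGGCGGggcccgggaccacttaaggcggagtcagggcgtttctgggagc
Ptch1: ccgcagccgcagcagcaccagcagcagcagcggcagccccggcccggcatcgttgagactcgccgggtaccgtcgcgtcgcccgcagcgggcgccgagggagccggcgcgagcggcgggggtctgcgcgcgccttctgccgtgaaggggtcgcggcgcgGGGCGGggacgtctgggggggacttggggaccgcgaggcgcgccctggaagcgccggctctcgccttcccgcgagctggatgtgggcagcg
Hhip: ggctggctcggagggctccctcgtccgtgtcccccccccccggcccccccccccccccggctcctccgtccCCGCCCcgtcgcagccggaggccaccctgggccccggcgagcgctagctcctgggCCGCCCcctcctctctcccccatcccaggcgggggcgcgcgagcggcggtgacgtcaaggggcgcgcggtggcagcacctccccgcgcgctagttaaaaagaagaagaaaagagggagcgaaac
The letters GACCACCCA (the core bound by Gli factors), searched on both strands, occurred in none of the 7 members for which such a stretch was given, and in 74 of 32851 stretches of all genes (0.225%). That says only that these letters are not in these windows. GC boxes occurred in 6 of the 7 members, with 4 in Dhh, 1 in Ptch1 and 2 in Hhip, and in 32.7% of all stretches. The stretch of Ptch1 was 78.4% G or C, that of Hhip 76% and that of Dhh 59.6%, beside a median of 52.4% over all genes.

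**Figure D1:**
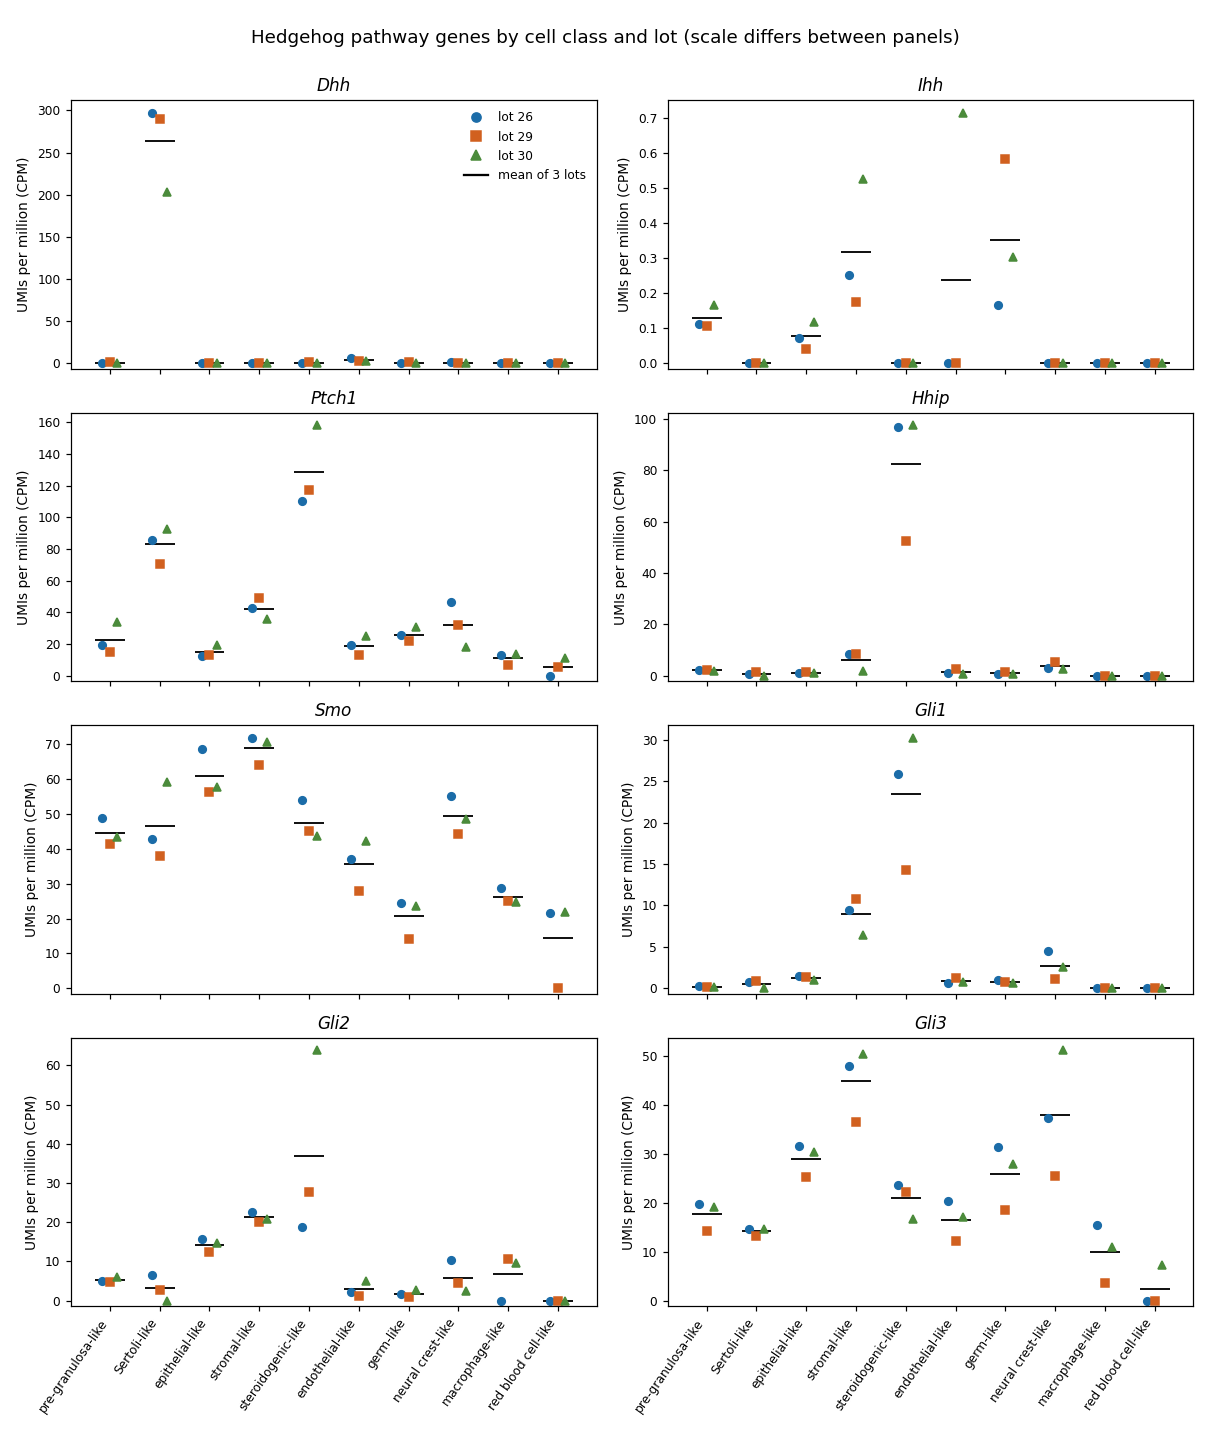
Level (CPM) of each Hedgehog gene in the 10 named cell classes, with 1 point for each of lots 26, 29 and 30 and a line at their mean. The vertical scale differs between panels. Dhh stands at 203 to 297 CPM in Sertoli-like cells and below 8 elsewhere, while Ptch1, Hhip and Gli1 are highest in steroidogenic-like cells. The class written as neural crest-like is the neural crest and chromaffin-like class.

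The ligand Dhh was highest in Sertoli-like cells. There it stood at 297 CPM in lot 26, 290 in lot 29 and 203 in lot 30, a mean of 263 ± 52.3 CPM (SD, n = 3). Its level in pre-granulosa-like cells, the ovarian counterpart of Sertoli cells, was 0.541, 1.23 and 0.445 CPM. The classes did not overlap in any lot, and the log2 fold change of Sertoli-like against pre-granulosa-like cells was 8.55 with a standard error (SE) of 0.34 (edgeR quasi-likelihood test, adjusted p = 6.3e-15). Dhh was left out of the Sertoli markers and of the clustering, although it ranked among the 10 leading genes of the resulting cluster. Dhh UMIs were seen in 91.4 ± 3.52% of Sertoli-like cells (67.7 ± 3.23% with each cell thinned to 4000 UMIs, to equalise depth) and in 0.731 ± 0.295% of pre-granulosa-like cells (0.230 ± 0.0900% thinned). Of 1716 Dhh UMIs in the kept cells, 1506 were in the 389 Sertoli-like cells. They made up 82.5%, 92.9% and 55% of the Dhh UMIs of lots 26, 29 and 30, and in lot 30, with 16 Sertoli-like cells, 24 of 100 Dhh UMIs were in pre-granulosa-like cells.

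A second, much lower level of Dhh was present in the endothelial-like cells that the CD31 depletion had left. It was 7.0 CPM (21 UMIs) in lot 26, 3.23 CPM (5 UMIs) in lot 29 and 2.86 CPM (4 UMIs) in lot 30. These values were above those of the pre-granulosa-like, epithelial-like and stromal-like cells in every lot, and the log2 difference from the mean of these 3 large classes was 3.52 (SE 0.64, adjusted p = 0.00017). Without lot 26 the call was lost (log2 difference 2.97, adjusted p = 0.08). With every cell holding a Y-linked UMI left out, the log2 difference was 3.31 (adjusted p = 0.00085), and Dhh in the endothelial-like cells was 5.70, 1.12 and 2.93 CPM. The value of lot 29 was then below the 1.23 CPM of the whole pre-granulosa-like class in that lot. The Sertoli list (8 markers of Sertoli cells, Dhh not among them) summed to 39.3 CPM over all lots in endothelial-like cells without a Y-linked UMI. It summed to 179 CPM in the 47 endothelial-like cells with one, whose Dhh was 9.44 CPM. The part of stray Sertoli RNA in the remaining difference was not tested.

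In the other classes Dhh was lower. It was 0.363 ± 0.226 CPM in epithelial-like, 0.300 ± 0.234 in stromal-like and 0.604 ± 0.633 in steroidogenic-like cells. Macrophage-like cells held no Dhh UMI, where 3 counts would have been 3.10 to 10.7 CPM depending on the lot. The lower Dhh of stromal-like and of epithelial-like than of pre-granulosa-like cells did not pass the test (log2 fold changes -1.52 and -1.11, adjusted p = 0.086 and 0.14). With lot as a block, both passed (-1.53 and -1.12, adjusted p = 0.0085 and 0.014). Dhh shares bases with Rhebl1 on the same strand and with the antisense gene Gm49442, and reads from these were not told apart here.

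Ihh was at the limit of detection throughout. It had 16, 10 and 29 UMIs in lots 26, 29 and 30, over all cells. Its highest class means were 0.351 ± 0.213 CPM in germ-like and 0.318 ± 0.184 CPM in stromal-like cells, and Sertoli-like and steroidogenic-like cells held none. Ihh did not reach the minimum count for testing, and no difference between classes was detectable at this depth. Sonic hedgehog (Shh), the third mammalian ligand, was likewise too low to test. Its 29 UMIs in steroidogenic-like cells came from 15 cells, 15 of these UMIs from 6 cells that held Cyp21a1 (an adrenal enzyme of corticosteroid synthesis) and no Insl3 (a Leydig cell hormone).

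Ptch1, the receptor and a target of the pathway, was highest in steroidogenic-like cells, at 111, 117 and 158 CPM in lots 26, 29 and 30, followed by Sertoli-like cells at 85.7, 70.8 and 92.3 CPM and by stromal-like cells at 42.5, 48.9 and 36.02 CPM. As whole classes these 3 did not overlap with each other. Steroidogenic-like cells without a Y-linked UMI had 65.8, 89.4 and 121 CPM in lots 26, 29 and 30, which overlapped with the Sertoli-like class. Below these 3 classes lay pre-granulosa-like cells at 19.3, 14.8 and 33.7 CPM and epithelial-like cells at 12.7, 13.3 and 19.2 CPM, whose ranges overlapped. Neural crest and chromaffin-like cells (32.1 ± 14.2 CPM), germ-like cells (26.02 ± 4.26 CPM) and endothelial-like cells (19.1 ± 6.04 CPM) overlapped with one or both. The name of the neural crest and chromaffin-like class, of 37, 68 and 25 cells, depends on the clustering: with the Hedgehog genes put back it held 7, 27 and 4 cells, and a mesonephric tubule-like class of 25, 39 and 18 cells appeared. As clustered here, its Ptch1 also overlapped with that of the stromal-like cells. In lot 30, where pre-granulosa-like Ptch1 was highest, 2897 of 4564 pre-granulosa-like cells belonged to cluster 2, which held 92 and 195 cells in lots 26 and 29 and whose own Ptch1 in lot 30, at 31.3 CPM, was below that of the class. Sertoli-like cells exceeded pre-granulosa-like cells by 1.71 on the log2 scale (SE 0.23, adjusted p = 1.6e-06), and leaving out any 1 lot kept this call.

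Among pre-granulosa-like cells Ptch1 was not even. Cluster 1, with Sprr2d and Fst among its leading genes, stood at 28.0, 22.9 and 50.4 CPM in the 3 lots, and cluster 0, with Ly6d, Gng13 and Gpha2 among them, at 14.6, 10.2 and 18.6 CPM. The lots of the 2 clusters did not overlap. Cluster 2, the third of the class, with Nfatc2 and the heat shock genes Hspa1a and Hspa1b among its leading genes, stood at 16.6, 18.8 and 31.3 CPM and overlapped with both. Hhip was 0.498 ± 0.301 CPM in cluster 1, 2.98 ± 0.273 in cluster 0 and 4.35 ± 2.00 in cluster 2. Gli1 was near 0 in all 3, at 0.112 ± 0.0172, 0.190 ± 0.200 and 0.0442 ± 0.0765 CPM. These are descriptions, and no test was made between clusters.

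Hhip, a membrane protein that binds the ligands and is a target of the pathway, reached 96.8, 52.6 and 97.5 CPM in steroidogenic-like cells. Stromal-like cells had 8.56, 8.34 and 1.87 CPM, with lot 30 far below the other lots, and pre-granulosa-like cells had 2.39, 2.36 and 1.78 CPM. Hhip was 1.24 ± 0.230 CPM in epithelial-like, 1.43 ± 1.01 in endothelial-like, 0.999 ± 0.405 in germ-like and 0.799 ± 0.831 in Sertoli-like cells. Sertoli-like cells thus had high Ptch1 with little Hhip, and their Gli1, at 0.523 ± 0.455 CPM, rested on 4 UMIs in all. Neither Hhip nor Gli1 differed between Sertoli-like and pre-granulosa-like cells by the test (adjusted p = 0.51 and 0.092). Gli1 passed in a DESeq2 fit (log2 fold change 2.07, adjusted p = 0.033) and with a stricter cell filter (2.07, adjusted p = 0.037).

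Smo, which carries the signal across the membrane, was present in every class. Its level was 71.9, 64.1 and 70.8 CPM in stromal-like, 68.6, 56.4 and 57.8 CPM in epithelial-like and 48.8, 41.5 and 43.4 CPM in pre-granulosa-like cells. Stromal-like and epithelial-like cells overlapped, and both lay above pre-granulosa-like cells in every lot. Germ-like cells had 20.7 ± 5.70 CPM of Smo, which was 1.48 lower on the log2 scale than the mean of the 3 large classes (SE 0.12, adjusted p = 1.9e-10). Endothelial-like cells were lower by 0.72 (SE 0.14, adjusted p = 0.0003). Steroidogenic-like cells had 47.5 ± 5.54 CPM of Smo and Sertoli-like cells 46.6 ± 11.1 CPM, and both overlapped with pre-granulosa-like cells.

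Of the 3 Gli factors, Gli1, an activator that is made where the pathway is on, had the largest fold between the 3 large classes. It was 25.8, 14.3 and 30.2 CPM in steroidogenic-like cells and 9.45, 10.8 and 6.49 CPM in stromal-like cells. Epithelial-like cells had 1.44, 1.41 and 1.02 CPM and pre-granulosa-like cells 0.293, 0.141 and 0.111 CPM. None of these 4 groups overlapped with another. Steroidogenic-like cells without a Y-linked UMI had 21.9, 15.5 and 15.1 CPM of Gli1, the last from 1 UMI in 7 cells. The pre-granulosa-like value rests on 23 UMIs in 11849 cells, and a Gli1 UMI was seen in 0.193 ± 0.114% of these cells (0.0871 ± 0.0407% thinned to 4000 UMIs), beside 9.15 ± 1.68% (4.24 ± 1.24% thinned) of stromal-like and 19.5 ± 8.38% (10.7 ± 3.52% thinned) of steroidogenic-like cells. Gli1 overlaps Arhgap9 on the other strand, and the strand setting of the counting is not given in the sources used here. Macrophage-like cells held no Gli1 UMI.

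Gli2, the main activator among the Gli factors, followed the same order with smaller steps. It was 22.7, 20.2 and 20.9 CPM in stromal-like, 15.7, 12.4 and 14.6 CPM in epithelial-like and 5.01, 4.65 and 6.02 CPM in pre-granulosa-like cells, without overlap. In steroidogenic-like cells the lots ranged widely, from 18.7 to 63.8 CPM, and in germ-like cells Gli2 was 1.77 ± 0.923 CPM. Gli3, which acts mostly as a repressor, was 48.1, 36.5 and 50.6 CPM in stromal-like, 31.6, 25.2 and 30.4 CPM in epithelial-like and 19.7, 14.3 and 19.2 CPM in pre-granulosa-like cells. Germ-like cells held it at 26.01 ± 6.67 CPM and Sertoli-like cells at 14.3 ± 0.866 CPM. Neither Gli2 nor Gli3 differed between Sertoli-like and pre-granulosa-like cells by the test (adjusted p = 0.37 and 0.17), though Gli2 passed with called doublets removed (log2 fold change -2.53, adjusted p = 0.0018).

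**Figure D2:**
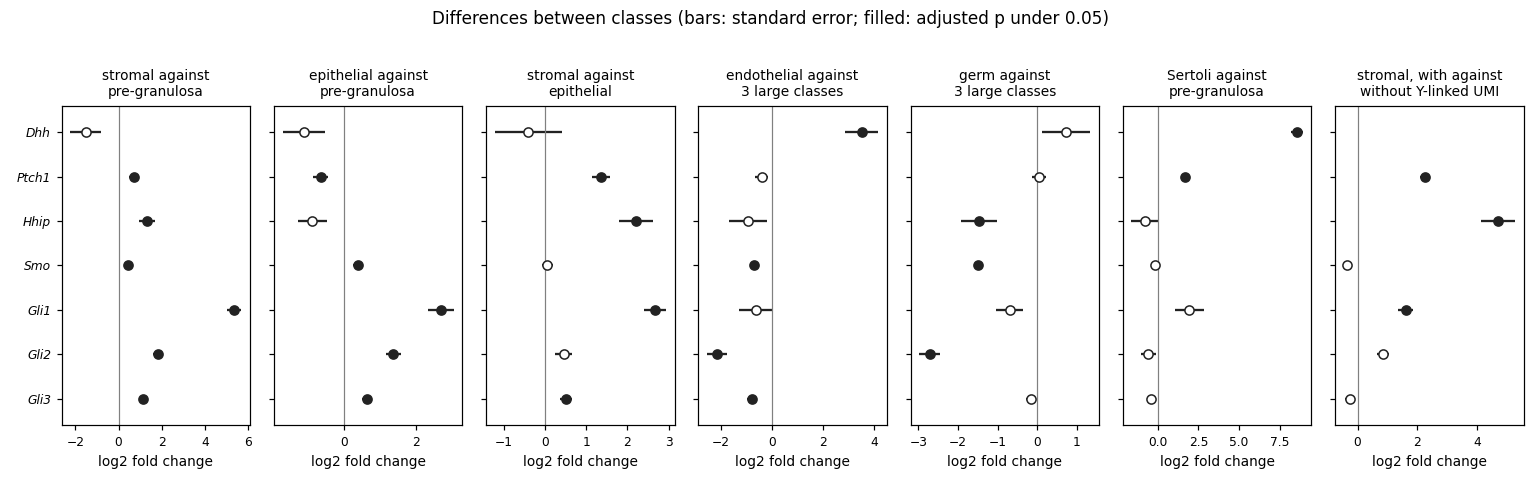
Log2 fold change (points) and its SE (bars) of the 7 tested Hedgehog genes in the 7 comparisons, with filled points at an adjusted p under 0.05. The horizontal scale differs between panels. In stromal-like against pre-granulosa-like cells 6 genes lie above 0 with filled points, and Gli1 lies farthest to the right at 5.36.

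The question of the first comparison was which of these genes tell stromal-like from pre-granulosa-like cells. Of 7 members tested, 6 were higher in stromal-like cells and none was lower. Of all 14448 genes tested, 22.6% were higher and 28.5% lower, and the median log2 fold change was 1.15 over the members and -0.06 over all genes. The largest difference was that of Gli1 (log2 fold change 5.36, SE 0.33, adjusted p = 4.1e-11), followed by Gli2 (1.82, SE 0.22, adjusted p = 2.7e-07), Hhip (1.32, SE 0.38, adjusted p = 0.0065) and Gli3 (1.15, SE 0.15, adjusted p = 6.8e-07). Ptch1 (0.71, SE 0.21, adjusted p = 0.0068) and Smo (0.44, SE 0.13, adjusted p = 0.0077) differed less.

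Ptch1 and Hhip lost their calls once cells with a Y-linked UMI were left out of every class, while Gli1, a target gene like them, kept its call. Gli1, Gli2 and Gli3 then stood at log2 fold changes of 5.09, 1.74 and 1.17, all past the threshold, and Smo at 0.48. Ptch1 fell to 0.26 (adjusted p = 0.32) and Hhip turned to -0.32 (adjusted p = 0.5). The calls of Ptch1 and Hhip were also lost without lot 26 (adjusted p = 0.095 and 0.12), without lot 29 (0.15 and 0.06), at a finer clustering resolution of 1.2 (0.12 and 0.057) and with unnamed cluster 3 joined to the stromal-like cells (0.14 and 0.093). That of Smo was lost without lot 30 (adjusted p = 0.13).

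Epithelial-like cells, named from markers such as Upk3b and Krt19, were set beside pre-granulosa-like cells in the same way. Of 7 members tested, 4 were higher and 1 was lower, where 20.1% of all genes were higher and 24.7% lower. Gli1 was higher by 2.69 on the log2 scale (SE 0.36, adjusted p = 3.8e-06), Gli2 by 1.37 (SE 0.21, adjusted p = 1.5e-05), Gli3 by 0.64 (SE 0.15, adjusted p = 0.00099) and Smo by 0.38 (SE 0.13, adjusted p = 0.019). Ptch1 was lower, at -0.65 (SE 0.21, adjusted p = 0.015). The calls of Ptch1 and Smo were lost without lot 26 (adjusted p = 0.084 and 0.15) and without lot 30 (0.078 and 0.14), and that of Ptch1 with the 3 large classes fitted alone (0.079). Hhip, at -0.88 (adjusted p = 0.086), passed with lot as a block (adjusted p = 0.01) and with cells holding a Y-linked UMI left out (adjusted p = 0.022).

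Stromal-like and epithelial-like cells differed in the target genes. Of 7 members tested, 4 were higher in stromal-like cells and none was lower, where 16.1% of all genes were higher and 15.4% lower. Gli1 was higher by 2.67 (SE 0.27, adjusted p = 1.5e-07), Hhip by 2.20 (SE 0.41, adjusted p = 0.00027), Ptch1 by 1.36 (SE 0.22, adjusted p = 2.4e-05) and Gli3 by 0.50 (SE 0.15, adjusted p = 0.011). Smo did not differ by the test (0.05, SE 0.13, adjusted p = 0.81), nor did Gli2 (0.45, SE 0.21, adjusted p = 0.1), which passed with lot as a block (0.45, adjusted p = 0.0042). The members called were 5 with the block, and also with DESeq2, with called doublets removed and with the 3 large classes fitted alone. Without cells holding a Y-linked UMI, Gli1 and Ptch1 were higher by 2.76 and 1.02 and passed, while Hhip stood at 0.74 (adjusted p = 0.19). The call of Gli3 was lost without lot 26 (adjusted p = 0.056) and without lot 30 (0.2).

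Endothelial-like and germ-like cells, which remained after the depletion, were each set against the mean of the 3 large classes. In endothelial-like cells 1 of 7 members was higher (Dhh, above) and 3 were lower, where 17.3% of all genes were higher and 23.8% lower. The lower members were Gli2 at -2.15 (SE 0.40, adjusted p = 0.00014), Smo, and Gli3 at -0.77 (SE 0.19, adjusted p = 0.0023), whose call was lost without lot 30 (adjusted p = 0.059). In germ-like cells none of 7 members was higher and 3 were lower, where 36.5% of all genes were higher and 40% lower. They were Gli2 at -2.72 (SE 0.26, adjusted p = 3.9e-09), Smo, and Hhip at -1.48 (SE 0.46, adjusted p = 0.0065), whose call was lost without lot 26 (adjusted p = 0.14) and without cells holding a Y-linked UMI (0.051). With lot as a block 5 members were lower, Gli1 (-0.72, adjusted p = 0.027) and Gli3 (-0.16, adjusted p = 0.043) being added, and the genes called in either direction went from 11058 to 11949 of all tested. In germ-like cells 4 members were called at a clustering resolution of 0.4, with called doublets removed and with the stricter cell filter. Ptch1 did not differ by the test in either class (adjusted p = 0.23 and 0.8).

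In Sertoli-like against pre-granulosa-like cells 2 of 7 members, Dhh and Ptch1, were higher and none was lower, where 16.7% of 13842 genes tested were higher and 20.1% lower. The median log2 fold change was -0.17 over the members and -0.10 over all genes.

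Within the stromal-like class the target genes went with Y-linked UMIs. Cells were split by whether they held a UMI of Ddx3y, Eif2s3y, Kdm5d or Uty, which marks XY cells. Cells without such a UMI can be XY too, and a Y-linked UMI is found more readily in a deep cell: the median UMI count of the cells behind the Ptch1 values was 14949, 11246.5 and 17377 in cells with one in lots 26, 29 and 30, beside 10046, 8060 and 11463 in cells without. There were 64, 234 and 25 cells with a Y-linked UMI among 1317, 1161 and 1304 stromal-like cells.

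Ptch1 stood at 185, 111 and 153 CPM in stromal-like cells with a Y-linked UMI in lots 26, 29 and 30, and at 31.5, 28.2 and 32.8 CPM in cells without. Hhip stood at 88.6, 23.2 and 48.2 CPM with and 2.37, 3.39 and 0.601 CPM without. Gli1 stood at 20.2, 19.7 and 32.8 CPM with and 8.62, 7.83 and 5.77 CPM without. For each of these genes every sum with was above every sum without, and the cells without held nearly the same Ptch1 in all lots. The log2 fold changes were 2.27 for Ptch1 (SE 0.16, adjusted p = 5.3e-05), 4.71 for Hhip (SE 0.56, adjusted p = 0.0016) and 1.61 for Gli1 (SE 0.25, adjusted p = 0.0071).

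Those 3 were the members that passed out of 6 tested, and none was lower, where 1.29% of 11901 genes tested were higher and 0.773% lower. Gli2 was higher by 0.85 without passing (SE 0.20, adjusted p = 0.06) and passed with lot as a block (0.88, adjusted p = 0.0067). The members called were 4 with the block, with DESeq2 and without the low-count filter, and 3 without lot 29. Smo (-0.35, adjusted p = 0.2) and Gli3 (-0.26, adjusted p = 0.61) did not pass. The call of Gli1 was lost when any 1 lot was left out (adjusted p = 0.057 to 0.077), while its log2 fold change stayed between 1.298 and 1.81. Ptch1 and Hhip passed without each lot.

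**Figure D3:**
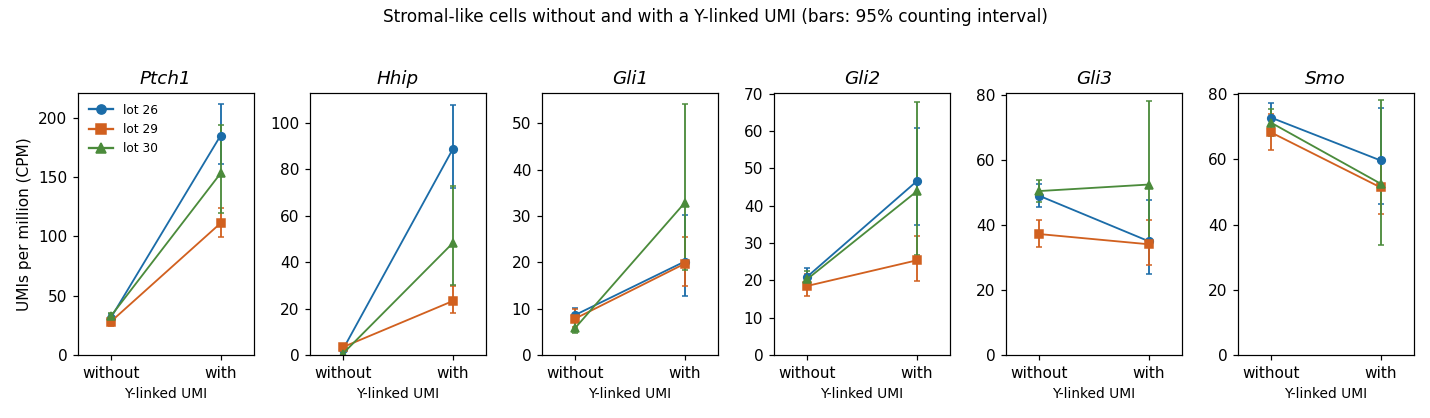
Level (CPM) of 6 Hedgehog genes in stromal-like cells without and with a Y-linked UMI, with 1 line for each lot and bars for the 95% counting interval. The lines of Ptch1, Hhip and Gli1 climb in all 3 lots, Ptch1 from about 30 CPM to between 111 and 185, while Smo is drawn lower with than without in all 3 lots and Gli3 in lots 26 and 29 but not in lot 30.

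Markers of other XY cells were measured in the same sums. The steroidogenic list (7 markers) summed to 120, 86.2 and 396 CPM in stromal-like cells with a Y-linked UMI and to 74.8, 85.8 and 82.2 CPM in cells without, beside 670 to 2871 CPM, depending on the lot, in steroidogenic-like cells with a Y-linked UMI. Ptch1 in the same stromal-like sums of lots 26, 29 and 30 was 185, 111 and 153 CPM with and 31.5, 28.2 and 32.8 CPM without. Of the defining Leydig genes, Insl3 was 1.06 CPM and Cyp17a1 0 in the cells of lot 29 with a Y-linked UMI. In lot 30 Insl3 was 26.3 and Cyp17a1 105 CPM, and the values of lot 26 are not reported here. The Sertoli list summed to 63.2, 100 and 125 CPM with and 43.4, 68.1 and 56.1 CPM without, beside 6854 CPM over all lots in Sertoli-like cells with a Y-linked UMI. With called doublets removed the log2 fold changes were 2.34 for Ptch1, 4.79 for Hhip and 1.55 for Gli1, all past the threshold. The part of RNA from steroidogenic and Sertoli cells in the remaining difference was not tested.

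The clusters that make up the stromal-like class differed in this. Cluster 5, with Itga8 and genes of dividing cells among its leading genes, held 231 of the 323 cells with a Y-linked UMI. In it Ptch1 was 154 CPM with and 22.4 CPM without, Hhip 51.4 and 1.82 CPM, and Gli1 23.8 and 5.11 CPM, over all lots. Ptch1 was 203, 126 and 175 CPM with and 22.4, 24.1 and 21.7 CPM without in lots 26, 29 and 30. In cells of cluster 5 without a Y-linked UMI, Ptch1 and Hhip were thus at the level of the pre-granulosa-like cells, while Gli1 was above it.

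Cluster 10, led by Lum, Ntrk2 and Agtr2, had another pattern. In its 1013 cells without a Y-linked UMI, Gli1 was 18.01, 16.006 and 14.8 CPM in the 3 lots and Ptch1 62.7, 52.2 and 66.1 CPM, the highest of the stromal-like clusters among cells without a Y-linked UMI. Hhip was 2.42, 4.87 and 0.778 CPM in the same cells. Its 51 cells with a Y-linked UMI had a Gli1 of 13.2 CPM (5 UMIs) and a Ptch1 of 92.5 CPM. The 95% counting interval of that Gli1 value, 4.29 to 30.8 CPM, holds the levels of the cells without. Cells of cluster 10 also had the highest Smo of the stromal-like clusters (95.9 ± 6.42 CPM, n = 3). They were shallow, with a median of 6090 UMIs beside 12233 in cluster 5.

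Cluster 13, led by Dkk2 and Foxd1, had a Gli1 of 10.8 ± 2.93 CPM, and cluster 16, led by Lum and Col6a3, of 2.75 ± 2.02 CPM. The unnamed cluster 3, led by Ngfr and Sparcl1, carried stromal and perivascular markers at about the same score and had a Gli1 of 1.64 ± 0.295 CPM and a Ptch1 of 13.1 ± 2.69 CPM. In cluster 3, too, the 57 cells with a Y-linked UMI had more Ptch1 (70.2, 97.0 and 38.1 CPM in the 3 lots) than cells without (10.02, 7.30 and 16.004 CPM). In epithelial-like cells Ptch1 was 20.6, 35.5 and 37.0 CPM with and 12.46, 10.8 and 19.1 CPM without, and Gli1 8.24, 5.91 and 10.1 CPM with and 1.18, 0.900 and 0.958 CPM without. In lot 30 only 11 epithelial-like cells, and fewer cells of cluster 3, held a Y-linked UMI. The lot 30 values with such a UMI thus rest on few counts in both. In pre-granulosa-like cells, summed over all lots, Ptch1 was 19.5 CPM in 40 cells with and 24.5 CPM in cells without. Those 40 were 13, 25 and 2 cells of lots 26, 29 and 30, too few to tell a rise from none. No test was made in these classes.

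**Figure D4:**
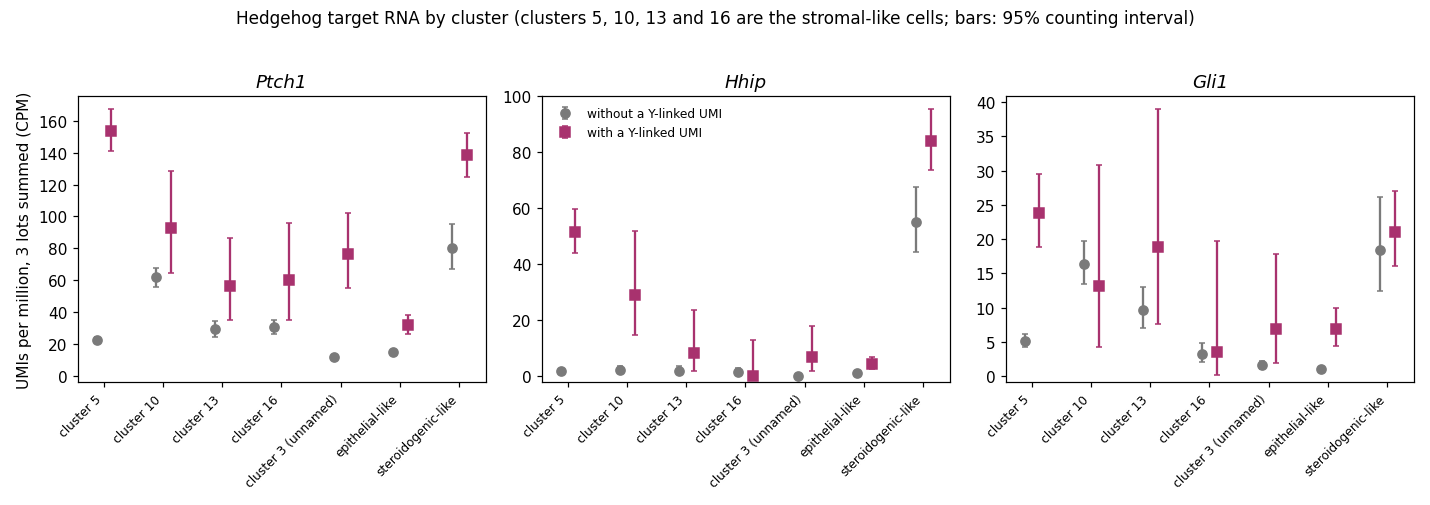
Level (CPM) of Ptch1, Hhip and Gli1 in cells without and with a Y-linked UMI, all lots summed, by cluster or class, with bars for the 95% counting interval. Cluster 5 shows the widest gap of Ptch1, 22.4 against 154 CPM, and cluster 10 has a Gli1 of about the same size in both kinds of cell.

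Counted per cell over all lots, the share of stromal-like cells with a Ptch1 UMI was larger among those with a Gli1 or an Hhip UMI. At 4000 UMIs per cell, a Ptch1 UMI was present in 25.3% of 154 stromal-like cells with a Gli1 UMI (95% exact binomial interval 18.7 to 33.0%) and in 12.1% of 3510 cells without one (11.02 to 13.2%). It was present in 42.4% of 59 cells with an Hhip UMI (29.6 to 55.9%) and in 12.1% of 3605 cells without (11.1 to 13.3%). In lot 29 the intervals overlapped, with 18.2% (9.08 to 30.9%) against 11.96% (10.04 to 14.1%) for Gli1 and 24% (9.36 to 45.1%) against 11.996% (10.1 to 14.1%) for Hhip. In steroidogenic-like cells a Ptch1 UMI was present in 47.5% of 61 cells with an Hhip UMI (34.6 to 60.7%). Without one it was present in 28.7% of 355 (24.1 to 33.7%), and in lots 29 and 30 the intervals overlapped. For Gli1 the shares with Ptch1 were 43.2% of 37 (27.1 to 60.5%) and 30.3% of 379 (25.8 to 35.2%). An Hhip UMI was present in 13.5% of those 37 (4.54 to 28.8%) and 14.8% of those 379 (11.4 to 18.8%). In stromal-like cells it was present in 6.49% of 154 with Gli1 (3.16 to 11.6%) and 1.40% of 3510 without (1.03 to 1.84%). In pre-granulosa-like cells the share with Ptch1 was 6.45% of 93 cells with an Hhip UMI (2.40 to 13.5%) and 8.73% of cells without (8.23 to 9.26%). The intervals cover counting error only, and cells of 1 lot are not independent replicates.

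Steroidogenic-like cells, the class with most Ptch1, Hhip and Gli1, were a mixture by their markers. Insl3 and Cyp17a1 of fetal Leydig cells and Cyp21a1 and Cyp11b1 of the adrenal cortex were all among the leading genes of the cluster. In the 42 cells with an Insl3 UMI and none of Cyp21a1, Hhip stood at 229 CPM and Ptch1 at 112 CPM. In the 17 cells with a Cyp21a1 UMI and none of Insl3, Hhip was 0 and Ptch1 19.9 CPM. The 358 cells with neither had 51.6 CPM of Hhip, 135 CPM of Ptch1 and 24.0 CPM of Gli1. Hhip itself ranked among the 10 leading genes of the cluster, and no test was made of this class. At a clustering resolution of 0.4, the steroidogenic-like cluster had Ngfr and Sparcl1 as well as Insl3 and Cyp17a1 among its leading genes and held 1175, 1010 and 1174 cells, and at 1.2 the class held 181, 290 and 71, so its levels hold for the resolution of 0.8 used here.

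The wider pathway list, 28 genes of ligand release, co-reception, signal transduction and mesenchymal targets, had calls in both directions. In stromal-like against pre-granulosa-like cells 7 of 24 tested were higher and 7 lower, near the 22.6% and 28.5% of all genes, with a median log2 fold change of 0.03 beside -0.06 over all genes. In epithelial-like against pre-granulosa-like cells 3 were higher and 4 lower of 24, a smaller share than the 20.1% and 24.7% of all genes. Shh, Foxf1, Foxf2 and Foxl1 were too low to test in these fits. Of the 5 tested genes of ligand release 2 were higher and 2 lower in stromal-like cells. Scube1, which helps free the ligand from the cell surface, was higher (0.84, SE 0.14, adjusted p = 2.1e-05), as was Hhat, which attaches palmitate to the ligand (0.55, adjusted p = 0.03). Scube2, of the same family as Scube1, was lower (-0.81, SE 0.30, adjusted p = 0.03), as was Disp1, which releases the ligand (-0.45, adjusted p = 0.038).

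Among the co-receptors are Gas1, Boc and Cdon, which present the ligand to Ptch1. Gas1 was 354 ± 59.8 CPM in stromal-like, 408 ± 71.3 in epithelial-like and 260 ± 77.4 in pre-granulosa-like cells, with overlapping lots. In Sertoli-like cells it was 59.1 ± 16.7 CPM, 2.35 below pre-granulosa-like cells on the log2 scale (SE 0.30, adjusted p = 4.3e-07), and Boc (-2.20, adjusted p = 2.3e-06) and Cdon (-1.36, adjusted p = 5.8e-05) were lower too. Lrp2, an endocytic receptor, was higher in epithelial-like than in pre-granulosa-like cells (5.02, SE 0.39, adjusted p = 8.6e-10).

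Of the 10 genes of signal transduction behind Smo, 1 was higher and 2 were lower in stromal-like than in pre-granulosa-like cells, a smaller share than the 22.6% and 28.5% of all genes. The higher one was Arl13b, a small GTPase of the primary cilium (0.53, SE 0.11, adjusted p = 0.00034), and the lower ones were Evc2 (-0.44, adjusted p = 0.0087) and the ciliary motor gene Kif3a (-0.36, adjusted p = 0.0089). Of the 4 mesenchymal targets tested 3 were higher and 1 was lower. Sfrp1, a secreted Wnt antagonist, had the largest fold (3.40, SE 0.15, adjusted p = 6.6e-15), Ccnd1, a cyclin, was higher by 0.64 (adjusted p = 0.0035) and Bmp4, a growth factor, by 0.58 (adjusted p = 0.04), and Mycn, a growth-promoting transcription factor, was lower (-1.56, SE 0.10, adjusted p = 8.6e-12).

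In stromal-like cells with against without a Y-linked UMI, none of 22 tested genes of the wider list was higher and 3 were lower, beside 1.29% and 0.773% of all genes. They were the co-receptors Gas1 (-0.89, SE 0.15, adjusted p = 0.011) and Cdon (-0.90, SE 0.19, adjusted p = 0.039) and Sfrp1 (-0.83, SE 0.17, adjusted p = 0.028). The median log2 fold change was -0.16 over the list, 1.23 over the members and -0.01 over all genes. Of 24 tested genes of the wider list, stromal-like cells had 4 higher and 4 lower than epithelial-like cells (16.1% and 15.4% of all genes), and Sertoli-like cells had 2 higher and 10 lower than pre-granulosa-like cells (16.7% and 20.1%). Against the mean of the 3 large classes, endothelial-like cells had 1 higher and 13 lower (17.3% and 23.8%), and germ-like cells 5 higher and 15 lower (36.5% and 40%).

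The genes most like each member were sought over 30 sums, those of 10 named classes in 3 lots, by Pearson's r of log2(CPM + 1) among 13104 genes that reached 5 CPM in the mean of some class. Dhh was most like Mall (r = 0.98) and Amh (0.96), the anti-Müllerian hormone of Sertoli cells, and then 3110035E14Rik (0.96). Gli1 was most like C1qtnf3 (0.94), Tspan11 (0.94) and Tnc (0.92), and Hhip like Prokr2 (0.92), Gli1 (0.91) and Prlr (0.90). Ptch1 was most like Rnf19a (0.90), Serinc5 (0.87) and Tmem64 (0.86), and Gli2 like Pdgfra, Wnt5a and Gucy1a3 (each 0.87). Smo was most like Kifap3, Irf2bpl and Rnf113a2 (each 0.95), and Gli3 like Hnrnph1 (0.95), Lrfn4 (0.95) and Pvrl3 (0.94). Sums of a class share its depth and cell type, and these values describe these lots only.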

How the data were processed

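Single-cell RNA was measured by 10X Genomics 3′ sequencing in 3 lots. Per the labels and the study's methods, the authors extracted barcodes with UMI-tools, used STAR 2.7 to map reads to GRCm38, dropped those that mapped to several places, assigned the rest with featureCounts 2.0.1 and deposited UMI counts per gene and cell. The annotation release and strand setting are not given in the sources used here. The deposited counts are whole numbers with no normalization, 126680758, 87494974 and 141920060 UMIs in lots 26, 29 and 30.

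The 8 members and the lists were chosen with earlier results of these data known. Cells with 200 to 9000 genes and at most 10% mitochondrial UMIs were kept, as the study's methods state. Seurat 5.3.0 log-normalised them to 10000, took 2000 variable genes less those of the 8 members and the wider list that were among them (8 genes in all), 50 principal components and a resolution of 0.8. Clusters were named from fixed marker lists, and those with a low or tied score stayed unnamed. A class is called -like for that reason. Scrublet (scanpy 1.11.5) marked 566, 347 and 635 doublets, which were kept, and their removal was an alternative.

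Raw counts were summed per class and lot, and a class needed at least 10 cells in every lot to enter a fit. The main fit held the pre-granulosa-like, epithelial-like, stromal-like, germ-like, endothelial-like, macrophage-like and red-blood-cell-like classes. The steroidogenic-like and the neural crest and chromaffin-like classes had enough cells but were not among the classes chosen for the fit. Tests were quasi-likelihood F tests of edgeR 4.0.16, 2-sided, on genes kept by filterByExpr and scaled by TMM, with Benjamini-Hochberg adjustment over all genes tested and a threshold of 0.05. The SE is the absolute log2 fold change divided by the square root of F. Sertoli-like cells were added to these sums in a fit of their own, and the split by Y-linked UMIs had another. Sums of a lot come from 1 pool, so a lot pairs them: over 63 pairs of sums of a lot, deviations from the class means correlated at a median r of 0.15, and 41 pairs were over 0.1. The fit with lot as a block was an alternative, and its values are given where it changed a call. Intervals are exact (Poisson for CPM, binomial for shares) and, like the 3-count floor, cover counting error only. Nothing says that a lot was sampled more than once, so p-values measure the spread between 3 pools.

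The genes named are the 8 members in every class, the wider list of 28 by counts with its largest and smallest folds, and the 3 genes most like each member. A few genes that this rule names are not reported here. Genes were placed by GENCODE vM21 and start regions by RefSeq (GRCm38.p6), where Gli1 had no entry. The scripts were tested on simulated data. DESeq2 1.42.0 and R 4.3.3 served the alternatives.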

Additional observations from a re-analysis of the deposited data

Results flagged for a closer look

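Some values outside the classes compared lay in all 3 lots above the sum of every whole class that entered a test. In steroidogenic-like cells these were Ptch1 (128 ± 25.7 CPM, against a highest such sum of 92.3), Gli1 (23.5 ± 8.23 CPM, against 10.8) and Hhip (82.3 ± 25.7 CPM, against 8.56). Not all of their lots lay above the stromal-like cells with a Y-linked UMI, which were tested apart and reached 185 CPM of Ptch1, 32.8 of Gli1 and 88.6 of Hhip. In unnamed cluster 12 the values above every whole class were Ptch1 (137 ± 36.2 CPM, also within reach of the stromal-like cells with a Y-linked UMI), Smo (174 ± 29.6 CPM, against 71.9) and Gli3 (79.5 ± 12.1 CPM, against 50.6). Cluster 12 held 727 cells with a median of 2664 UMIs, led by Lars2, Gpr21 and Pla2r1, and the part of its low UMI count in these levels was not tested. Its 711 cells without a Y-linked UMI had 112 CPM of Ptch1, 2.78 of Gli1 and 1.85 of Hhip.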

How the results depend on the processing

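Of the calls of single members, 1 changed sign: Hhip in stromal-like against pre-granulosa-like cells turned to -0.32 without cells holding a Y-linked UMI (the stromal-like cells left out held 23.2 to 88.6 CPM of it). Over all members, comparisons and settings, 657 values kept their direction and side of the threshold, 25 fell below it, 20 passed it, and 3 that had not passed changed sign without passing. The number of members called in epithelial-like against pre-granulosa-like cells ranged from 3 to 5 when a lot was left out, and that in germ-like cells rose from 3 to 5 with lot as a replicate block. The cause was not tested. The block changed no call beyond those given with the results. Joining cluster 3 to the stromal-like cells was chosen after seeing the data. The Sertoli-like comparison could not be fitted without cells holding a Y-linked UMI, as too few cells were left.

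Over all genes, calls in stromal-like against epithelial-like cells went from 4546 to 7290 with the block, 2957 without lot 26 and 2620 without lot 30. In endothelial-like cells they went from 5933 to 3519 without lot 26. In the split by Y-linked UMIs they went from 245 to 627 with the block, 423 without the low-count filter, 369 with cluster 3 joined, and 37, 160 and 66 without lots 26, 29 and 30. Of the genes called in stromal-like against pre-granulosa-like cells 44.3% were higher with TMM, 54.5% with RLE size factors and 60.9% with total UMIs only, and in stromal-like against epithelial-like cells 51.1%, 64.0% and 66.5%. With DESeq2 the shares were 54.6% and 63.4%, and in endothelial-like cells the share went from 42.02% to 53.8%. The median of all genes moved by up to 0.19 on the log2 scale between TMM and the other scalings of edgeR, and no called member changed sign under them.

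Shares of cells with a UMI moved with depth. From the unthinned value to 4000 and 2000 UMIs per cell they went from 91.4% to 67.7% and 37.0% for Dhh in Sertoli-like cells. In steroidogenic-like cells they went from 58.4% to 32.6% and 24.4% for Ptch1, from 33.7% to 17.2% and 15.4% for Hhip, from 19.5% to 10.7% and 5.69% for Gli1, and from 25.8% to 11.2% and 6.72% for Gli2. In stromal-like cells they went from 50.3% to 23.6% and 13.4% for Smo and from 38.1% to 16.5% and 10.1% for Gli3. Depth limits Ihh, Shh and the low members of Sertoli-like cells in lot 30, where 16 cells were summed.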
